A study of Mus musculus with 21 samples.

Results

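The receptors and ligands of the fibroblast growth factor (FGF) and platelet-derived growth factor (PDGF) families were followed in pancreatic ductal adenocarcinoma (PDAC) cells that became resistant to a MEK inhibitor (MEKi) and were then released from it. The 10 genes are the FGF receptors Fgfr1, Fgfr2, Fgfr3 and Fgfr4, the ligand Fgf2, the PDGF receptors Pdgfra and Pdgfrb, and the ligands Pdgfa, Pdgfb and Pdgfc. They were taken by symbol from the 34478 genes of the deposited table, and all 10 were among the 19300 genes with 10 or more normalized counts in 3 or more samples, which were tested.

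The samples come from 6 primary murine PDAC cell lines (#3, #4, #6, #7, #9 and #10), each grown from the tumor of a mouse that carried Trp53loxP/loxP beside Ptf1awt/Cre. In these mice Cre under the control of Ptf1a, a gene of the pancreatic lineage, removes Trp53, and every group shares these alleles. Parental cells (n = 6) had not seen the drug. Resistant cells (n = 6) had been taken through rising doses of trametinib, which inhibits MEK, and were kept at 100 times their own IC50. Reverting cells came from resistant cells cultured without the drug for 5 passages (P5, n = 3, lines #3, #7 and #9) or 12 passages (P12, n = 6). For 2 of the P5 samples, #7 and #9, one label field gives 12 passages, while their titles and the study's methods give 5. The replicates are the lines, with 1 library of a line in each state.

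FGF receptors and PDGF receptors are receptor tyrosine kinases. A ligand joins a pair of receptors, which then phosphorylate each other and pass the signal through adaptors to MEK and ERK, to PI3K and to PLCγ. FGFs need heparan sulfate or a Klotho protein as a co-factor, whereas PDGFs bind as dimers without one. In the pancreas, PDGF receptors are best known from stellate cells, fibroblasts and pericytes, while Fgfr2 (in one of its splice forms), Fgfr3 and Fgfr4 are typical of epithelia and Fgfr1 of mesenchymal cells.

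The depth estimated from the steps between low values lay between 24.0 and 42.6 M reads per sample, so that 3 reads corresponded to 2.31 to 4.08 normalized counts. This floor covers counting error only. Of the epithelial markers, Cdh1 reached 53229 normalized counts, whereas Epcam was listed at 0 in 20 of the 21 samples. Parental cells of line #9 stood apart with 817 normalized counts of Cdh1, against 26491 to 53229 in the other 5 parental lines. Spry4, a target gene of ERK, lay at 0 to 7.12 normalized counts in resistant and at 619 or more in all other samples. Trp53 was detected at 178 to 475 normalized counts in all samples, which does not test the deletion, since exons outside the loxP sites are counted too. In bulk RNA, fewer cells of a kind and less RNA per cell cannot be told apart.

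Differences are log2 fold changes of normalized counts after adding a pseudocount of 1, tested with limma in 1 fit of all states. A gene was called when its adjusted p was under 0.01 and its absolute log2 fold change over 1. Between resistant and parental cells, 5.3% of all tested genes were called, 2.73% as lower, and 1 of the 10 members was, Fgfr4, which was lower (4 members had an unadjusted p below 0.05, as had 29.2% of all genes). With the cell line as a block, which compares the states within each line, 10.5% of the genes were called, 4.85% as higher and 5.6% as lower, and 2 members, Fgfr3 as higher and Fgfr4 as lower. Between P12 and resistant cells 2.13% of the genes and 0 members were called (6 members had an unadjusted p below 0.05, as had 19.8% of all genes), and with the block 4.52% of the genes, 2% as lower, and 1 member, Fgfr3, as lower. Between P12 and parental cells 0.114% of the genes and 0 members were called (2 members had an unadjusted p below 0.05, as had 15.3% of all genes), and with the block 0.523% of the genes, 0.311% as lower, and 1 member, Fgfr4, as lower. P5 cells gave 0 called members against resistant cells, where 0.378% of the genes were called, and 0 against parental cells, where 0.0259% were called. At an unadjusted p below 0.05 in limma there were 5 members of P5 against resistant cells and 2 against parental cells, beside 15.4% and 10.4% of all genes. The 3 states compared pairwise share their samples, so that the comparisons are not independent.

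**Figure D1:**
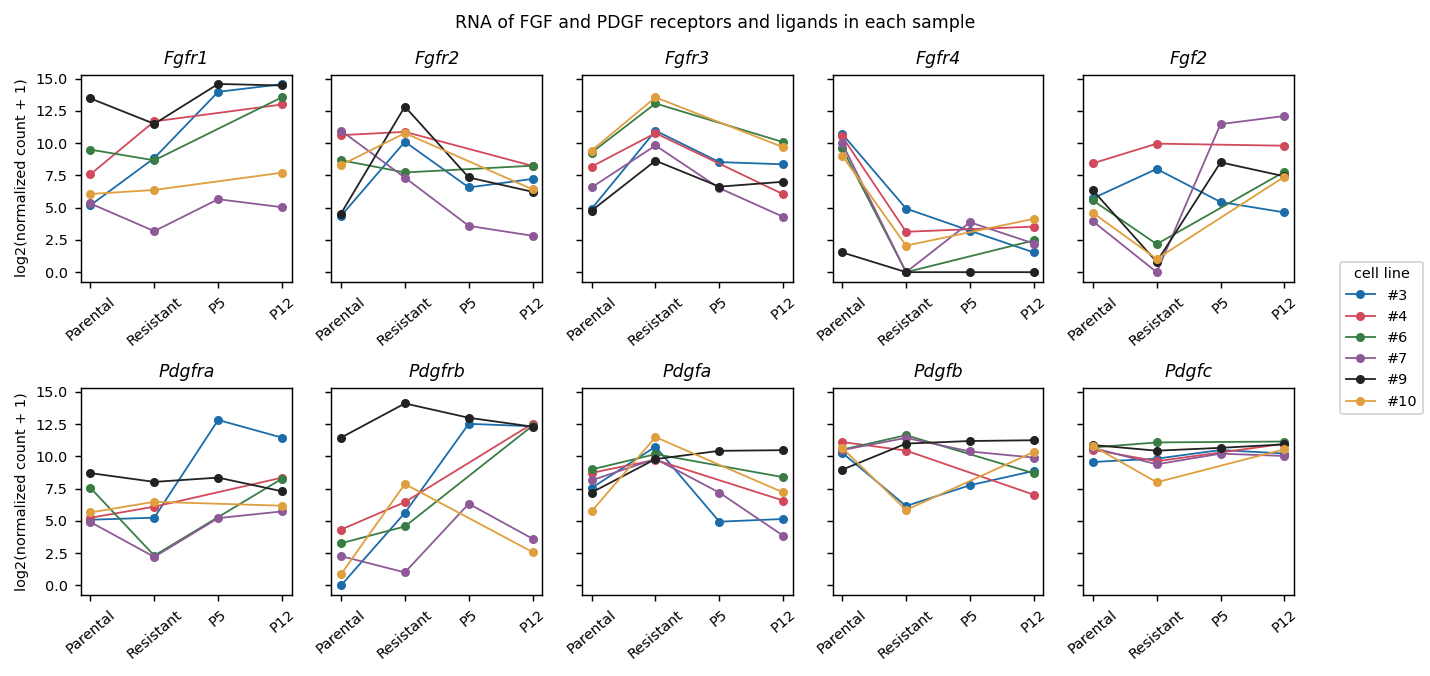
Level of each of the 10 genes, as log2(normalized count + 1), in the parental, resistant, P5 and P12 samples, with 1 line per cell line joining its own samples. Fgfr4 fell from 520 or more to 29.4 or less in 5 lines, Fgfr3 peaked in the resistant samples of all 6 lines, and Pdgfrb in P12 was either at 5039 or more or at 11.3 or less normalized counts.

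The differences were large but not the same in each line. The median absolute log2 fold change over the 10 genes was 2.07 between resistant and parental cells and 2.92 between P12 and resistant cells, where it was 0.50 and 0.40 over all tested genes. The spread between lines was large too. Among parental cells the SD of Pdgfrb over lines was 4.11 on the log2 scale, larger than that of 99.6% of the genes, and that of Fgfr1 was 3.19, while Pdgfc with an SD of 0.48 lay near the median of all genes of 0.51.

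Fgfr4 (chr13:55152640-55168759, GRCm38), a receptor known from liver and other epithelia that binds hormone-like FGFs together with the co-receptor Klb, was the called member in resistant cells. Parental cells of lines #3, #4, #6, #7 and #10 held 1677, 1458, 766, 1013 and 520 normalized counts, and line #9 held 1.89, below its floor. The resistant cells held 29.4 in line #3, 7.75 in line #4, 0 in lines #6, #7 and #9, and 3.16 in line #10. The groups thus overlapped through parental line #9 alone. The log2 fold change was -6.87 (SE 1.34, limma adjusted p = 0.00205), and with the block the adjusted p was 0.000181. Without line #9, which had no Fgfr4 to lose, it was -7.94 (adjusted p = 3.59e-05). The call missed the threshold without line #4 (adjusted p = 0.0127), #6 (0.0206), #7 (0.0144) or #10 (0.0123), and in a fit of parental and resistant cells alone (0.0104). With the block it was called in all 6 fits that left out a line (adjusted p = 8.05e-05 to 0.00202).

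Fgfr4 stayed low without the drug. In P12 cells it was at 1.88, 10.5, 4.48, 3.65, 0 and 16.6 normalized counts in lines #3, #4, #6, #7, #9 and #10, and in P5 cells at 8.24, 13.6 and 0 in lines #3, #7 and #9. The P12 and P5 values of the lines that had expressed Fgfr4 were thus at most 16.6, against 520 or more before treatment. P12 differed from parental cells by a log2 fold change of -6.25 (SE 1.34, limma adjusted p = 0.0386), and the block brought this past the threshold (adjusted p = 0.00484), as did leaving out line #9 without a block (0.000364). With the block, the call was lost in the fits without line #3, #4, #6, #7 or #10, where the highest adjusted p was 0.031. P12 and resistant cells differed by 0.63 (SE 1.34, adjusted p = 0.856). The order of the mean log2 levels was parental (8.56), P5 (2.36), P12 (2.31) and resistant (1.69), and the last 3 lay within 1 SD of each other.

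Epithelial markers moved with Fgfr4 over the samples as a whole, but not in every line or for every marker. The summed level of the 8 epithelial markers was 15953 to 283604 normalized counts in parental and 1014 to 209985 in resistant cells, with line #9 the lowest in each state, and in P12 cells it was 489 to 205792. Of these markers, 2 of the 7 tested (Cldn4 and Cldn7, tight junction genes) were called lower in resistant cells. With the block 5 were, as Cdh1 (log2 fold change -7.11, limma adjusted p = 0.000175), Krt8 (-1.81, 0.00818) and Krt18 (-2.76, 0.00839) joined them. Between P12 and parental cells Cldn4 was called lower, and with the block Cldn7 too. Over the 21 samples, the log2 level of Fgfr4 had a Pearson r of 0.838 with the mean of these markers and of 0.637 with Cdh1 alone. The genes most like Fgfr4 were Gm13111 (r = 0.907), Cldn7 (r = 0.906) and Hnf1aos2 (r = 0.902). Between P12 and resistant cells Cdh1 had a log2 fold change of 3.85 (SE 1.92, limma adjusted p = 0.277, with the block 0.018). This was not called, and Fgfr4 stayed low. Lines #7 and #10 differed in this respect. Line #7 kept a marker sum of 209985 in resistant and 205792 in P12 cells while its Fgfr4 was at 0 and 3.65. In line #10 the marker sum was 227556 in parental, 33773 in resistant and 138222 in P12 cells, where its Fgfr4 was at 16.6. The part of these markers in the change of Fgfr4 was not tested.

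Fgfr3 (chr5:33721674-33737068), an epithelial receptor that binds among others Fgf1, Fgf9 and Fgf18, went up under the drug. Parental cells held 29.0, 288, 614, 93.6, 26.2 and 684 normalized counts in lines #3, #4, #6, #7, #9 and #10. Resistant cells held 1998, 1745, 8574, 899, 397 and 11926 in the same order. It was higher in 6 of 6 lines, by 6.04-fold in line #4 to 66.7-fold in line #3, although the groups overlapped, with resistant line #9 below parental lines #6 and #10. Of all tested genes, 8.99% were higher in every line. The log2 fold change of 3.95 had an SE of 1.07 and an adjusted p of 0.0179 in limma without the block, which missed the threshold, and an SE of 0.59 and an adjusted p of 0.000294 with the block. With the block it was called in all 6 fits that left out a line (adjusted p = 0.000706 to 0.00237).

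After withdrawal Fgfr3 came down in every line. P12 cells held 327, 64.5, 1073, 18.5, 127 and 820 normalized counts in lines #3, #4, #6, #7, #9 and #10, and P5 cells 368, 89.9 and 97.5 in lines #3, #7 and #9. It was lower than in resistant cells in 6 of 6 lines, as were 8.2% of all genes, by a log2 fold change of -3.56 (SE 1.07, limma adjusted p = 0.0542), and the block made it a call (SE 0.59, adjusted p = 0.00134; 0.00268 to 0.00871 over the fits without 1 line). P12 and parental cells differed by 0.39 (SE 1.07, adjusted p = 0.889), with 4 lines higher and 2 lower. The highest of the 3 P5 values, 368 in line #3, lay below the lowest resistant value, 397 in line #9. How many of all genes separated in this way was not counted. The log2 fold change of -3.91 between P5 and resistant cells (SE 1.31, limma adjusted p = 0.135) was not called, also with the block (-2.54, adjusted p = 0.0946).

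The reference promoters of these receptors and of Pdgfa are shown because the receptors were called in a fit and all resistant values of Pdgfa lay above all parental values. That separation was not counted over all genes. Each stretch ends where an annotated GENCODE M21 exon begins within the window. The Pdgfa stretch lies inside the annotated gene, since longer transcripts start further upstream. The sequences were taken from RefSeq on build GRCm38.p6, and are written 5′ to 3′ on the strand of the gene, with GC boxes (GGGCGG on either strand) in capitals.
Fgfr3, chr5:33721474-33721673, plus strand: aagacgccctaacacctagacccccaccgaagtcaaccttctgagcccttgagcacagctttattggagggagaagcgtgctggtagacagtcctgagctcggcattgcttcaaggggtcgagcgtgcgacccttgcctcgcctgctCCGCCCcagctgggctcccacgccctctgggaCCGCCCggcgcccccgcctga
Fgfr4, chr13:55152568-55152639, plus strand: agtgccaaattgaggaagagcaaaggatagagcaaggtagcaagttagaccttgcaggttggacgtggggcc
Pdgfa, chr5:138995038-138995194, minus strand: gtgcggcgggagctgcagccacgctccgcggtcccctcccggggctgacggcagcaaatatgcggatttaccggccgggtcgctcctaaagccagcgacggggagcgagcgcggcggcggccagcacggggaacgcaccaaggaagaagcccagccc
The Fgfr3 stretch has 200 bases, 65.0% G and C, 14 CpG and 2 GC boxes, and the Pdgfa stretch 157 bases, 72.0% G and C and 20 CpG. The Fgfr4 stretch has 72 bases, 51.4% G and C and 1 CpG, because its exon starts earlier within the window. The whole Fgfr4 window has 65.3% G and C, 20 CpG and 4 GC boxes. The whole windows of the other stretches have 26 CpG and 4 GC boxes for Fgfr3, and 37 CpG and 2 GC boxes for Pdgfa. Windows from 250 bases before to 50 bases after a start were held for 7 members and 9 starts. In them, the GC box occurred in 6 of 9, against 35.7% of 32851 windows of all genes. These were both windows of Fgfr3, both of Pdgfa, and those of Fgf2 and Fgfr4, so that windows of the same gene were counted separately. On either strand, the AP-1 motif TGANTCA occurred in 0 of 9 (7.81% of all), the E-box CACCTG in 0 of 9 (20.2%) and the ETS motif CCGGAAG in 0 of 9 (8.86%). Such matches only describe the letters of these windows.

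Fgfr2 (chr7:130162451-133123350), whose splice forms bind FGFs made by stroma or by epithelium, had the widest range of line differences among the 10 members between resistant and parental cells. The span given is the GENCODE M21 extent of Fgfr2, which also covers other genes, among them Tacc2 and Htra1 on the opposite strand. The reference promoter window of Fgfr2 lies well inside it and ends at 130267058. Parental cells held 19.5, 1567, 407, 1992, 22.2 and 313 normalized counts in lines #3, #4, #6, #7, #9 and #10, and resistant cells 1099, 1875, 210, 159, 7292 and 1741. It was 315-fold higher in resistant than in parental cells of line #9 and 53.7-fold higher in line #3, but 12.4-fold lower in line #7. The log2 fold change of 2.03 (SE 1.25, limma adjusted p = 0.301) was not called. P12 cells held 6.05 to 303 normalized counts (median 116), below their resistant cells in 5 of 6 lines, with a log2 fold change of -3.41 (SE 1.25, adjusted p = 0.12). The table is by gene, so that the splice forms were not analysed here.

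Fgfr1 (chr8:25513654-25575718), the receptor typical of mesenchymal cells and a main receptor for Fgf2, was abundant after withdrawal in 4 lines. In P12 cells it reached 24086 normalized counts in line #3, 8140 in line #4, 12012 in line #6 and 22529 in line #9, but 31.7 in line #7 and 208 in line #10. In parental cells it was at 35.3, 190, 719, 39.0 and 65.5 in lines #3, #4, #6, #7 and #10, whereas line #9 already held 11250. Resistant cells lay at 457, 3276, 404, 8.04, 2876 and 81.6 in the order #3, #4, #6, #7, #9 and #10. P12 was above resistant in 6 of 6 lines, by 2.48-fold in line #4 to 52.6-fold in line #3, as were 7.77% of all genes. The spread of the lines was such that the log2 fold changes of 3.01 against resistant (SE 2.00, limma adjusted p = 0.445) and 3.54 against parental cells (SE 2.00, adjusted p = 0.408) were not called, also with the block (adjusted p = 0.0618 and 0.0532). P5 cells of lines #3 and #9 were at 16099 and 24571, while P5 cells of line #7 were at 49.3.

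**Figure D2:**
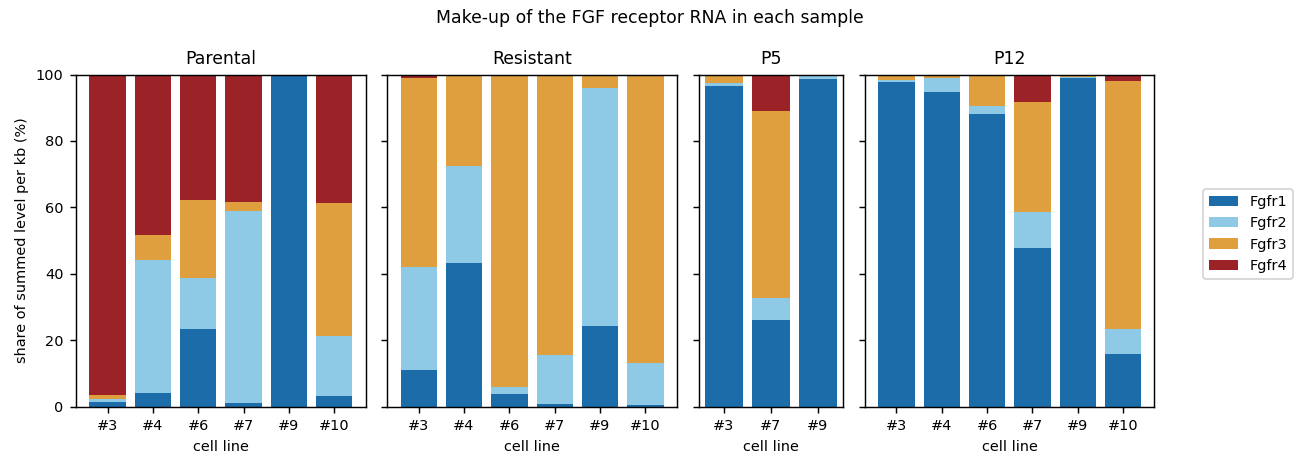
Share of each FGF receptor, in percent of the summed normalized counts per kb of the 4 receptors, in each sample by state and cell line. Fgfr4 gave 37.7% or more in 5 parental lines, Fgfr3 led in 4 of 6 resistant lines, and Fgfr1 led in 5 of 6 P12 lines.

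Levels of different receptors were compared per kb of the longest coding transcript. On this scale Fgfr4 led the family in parental lines #3, #4 and #6, Fgfr2 in line #7, Fgfr3 in line #10 and Fgfr1 in line #9, where it gave 99.5% of the sum. Dividing by the merged exons of each gene in place of the longest transcript moved lines #7 and #10 to Fgfr4, while no lead changed in the other states. In resistant cells Fgfr3 led in lines #3, #6, #7 and #10 with a share of up to 94.0%, Fgfr1 in line #4 and Fgfr2 in line #9. In P12 cells Fgfr1 led in 5 lines with 47.8% to 99.0%, and Fgfr3 led in line #10 with 74.6%. The summed level per kb was 403 to 2244 in parental, 250 to 3230 in resistant and 13.1 to 4890 in P12 cells. The 13.1 of P12 line #7 was the lowest sum of all samples, so that its shares describe very little RNA.

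Apart from the pseudocount of 1, which weighs on low values, the ratio of Fgfr1 to Fgfr2 within a sample does not depend on scaling between samples. Its log2 value was higher in P12 than in resistant cells in 6 of 6 lines, by a mean of 6.43 ± 2.26 (SD, n = 6), with 3.96 as the smallest and 9.58 as the largest change. Fgfr1 rose in 6 of 6 lines and Fgfr2 fell in 5 of 6, so that this partly restates their changes, neither of which was called. The ratio was not compared with those of other gene pairs. Between resistant and parental cells it changed by -1.51 ± 4.85 (SD, n = 6), up in 3 lines and down in 3. In P12 cells it was above parental cells in 5 of 6 lines, with a mean change of 4.92 ± 3.26 (SD, n = 6), and it fell by 0.69 in line #9.

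**Figure D3:**
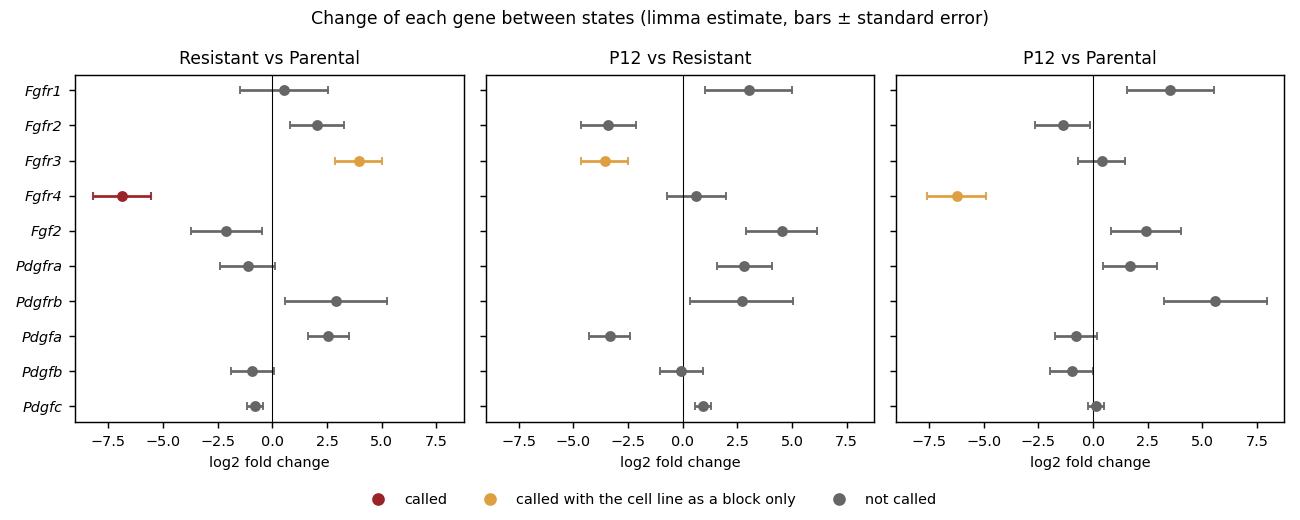
Log2 fold change of each gene between resistant and parental, P12 and resistant, and P12 and parental cells, as limma estimates with bars of ± 1 standard error. Fgfr4 at -6.87 was called between resistant and parental cells, and the call of Fgfr3 at 3.95 and -3.56 and of Fgfr4 at -6.25 needed the cell line as a block.

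Fgf2 (chr3:37348346-37410108), a ligand without a signal peptide that is stored on heparan sulfate, was lower under the drug in 4 lines and higher in the others. Parental cells held 51.6, 344, 46.4, 14.4, 80.5 and 23.3 normalized counts in lines #3, #4, #6, #7, #9 and #10. Resistant cells held 254 and 991 in lines #3 and #4, but 3.51, 0, 0.73 and 1.04 in lines #6, #7, #9 and #10, all at or below the floor of 3 reads. P12 cells held 23.7, 887, 219, 4395, 171 and 168. Line #7, with almost no Fgfr1, thus had the most Fgf2, and its P5 cells already held 2832. The log2 fold changes of -2.11 between resistant and parental (SE 1.62, limma adjusted p = 0.419) and 4.53 between P12 and resistant cells (SE 1.62, adjusted p = 0.11) were not called. On the opposite strand Fgf2 shares 5199 bases with Nudt6, which lay between 110 and 237 in all samples. The library kit marks strand, but whether the quantification used it is not given in the sources used here.

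Pdgfrb, a receptor which marks pericytes and fibroblasts, was close to absent in parental cells of 5 lines (0, 19.1, 8.62, 3.84 and 0.82 normalized counts in lines #3, #4, #6, #7 and #10) and high in line #9 (2792). In resistant cells it was at 48.4, 86.8, 22.7, 1.02, 17519 and 231 in the order #3, #4, #6, #7, #9 and #10. P12 cells held 5161, 5970, 5314 and 5039 in lines #3, #4, #6 and #9, and 11.3 and 4.99 in lines #7 and #10. The P12 values therefore formed a high set of 4 lines and a low set of 2, with no line between 11.3 and 5039. P12 was above parental in 6 of 6 lines, as were 6.46% of all genes, with a log2 fold change of 5.60 (SE 2.35, limma adjusted p = 0.26, with the block 0.0564), which was not called. Line #10 stood out, with 0.82 in parental, 231 in resistant and 4.99 in P12 cells.

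Pdgfra (chr5:75152292-75198215), which binds all the PDGF chains studied here, was low in most samples. Parental cells held 29.2 to 416 normalized counts (median 43.2), resistant cells 3.63 to 259 (median 52.4) and P12 cells 52.4 to 2795 (median 232). The reverting cells of line #3 exceeded all other samples, with 7245 in P5 and 2795 in P12 against 37.1 when resistant. Between P12 and resistant cells the log2 fold change was 2.82 (SE 1.25, limma adjusted p = 0.21). Per kb, Pdgfra was the larger of the receptor pair in 5 parental lines, and Pdgfrb in 5 resistant lines, in all 3 P5 samples and in P12 lines #3, #4, #6 and #9.

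**Figure D4:**
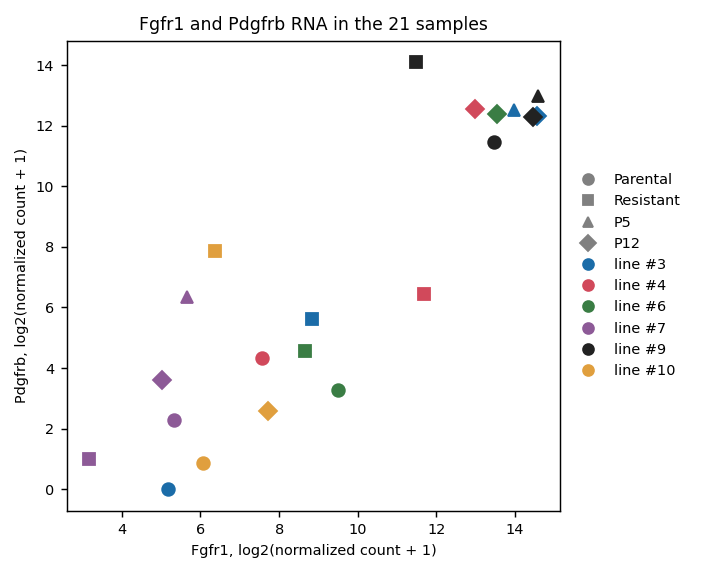
Level of Pdgfrb against that of Fgfr1, both as log2(normalized count + 1), in the 21 samples, with the state as symbol and the cell line as color. The P12 samples of lines #3, #4, #6 and #9, the P5 samples of #3 and #9 and the parental and resistant samples of #9 lie at the top right, all samples of #7 and #10 lie below, and resistant #4 has 3276 Fgfr1 but 86.8 Pdgfrb.

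Over the 21 samples the log2 levels of Fgfr1 and Pdgfrb had a Pearson r of 0.878, those of Fgfr1 and Pdgfra 0.774, and those of Pdgfra and Pdgfrb 0.744. The points share cell lines, and line #9 was high in each state. Resistant line #4, with the most Fgfr1 of its state, held little Pdgfrb (86.8 against 17519 in line #9). The genes most like Fgfr1 were Ifitm3 (r = 0.913), Boc (0.897) and Serpina3n (0.896), those most like Pdgfrb were Dennd2a (0.915), Gm11476 (0.911) and Wisp2 (0.897), and those most like Pdgfra were Col2a1 (0.903), Tgfbi (0.898) and 2700029L08Rik (0.884).

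Markers of fibroblasts and pericytes were measured beside these receptors. The summed level of 10 fibroblast and stellate cell markers was 99.0 to 22998 normalized counts in parental (highest in line #9), 2004 to 568712 in resistant and 225 to 175658 in P12 cells, with line #7 the lowest in the last 2 states. Of 9 tested, Dcn was called higher in resistant cells, and Lum was at 0 in 14 samples. With the block the collagen genes Col1a1 (log2 fold change 5.19, limma adjusted p = 0.00363) and Col3a1 (8.01, 0.00252) were also called higher, and Dcn was called lower in P12 than in resistant cells (-6.26, 0.00964). This sum was higher in resistant than in P12 cells of all 6 lines, whereas Fgfr1 was lower in resistant than in P12 cells of all 6. Pdgfrb was lower in resistant cells in 4 lines. In lines #9 and #10 it was higher in resistant cells (17519 against 5039 and 231 against 4.99). The sum of 5 pericyte markers was 45.1 to 1671 in parental, 253 to 16039 in resistant and 262 to 5542 in P12 cells. Among them Rgs5, which was at most 7.37 in resistant cells, had a median of 336 in P12 cells and was called higher (log2 fold change 6.53, limma adjusted p = 0.00135), whereas Kcnj8 was at 0 in 17 samples. Mcam was called higher in resistant than in parental cells with the block only (4.57, adjusted p = 0.0077). Between P12 and resistant cells Mcam went the other way from Rgs5 (-2.76, SE 1.56, limma adjusted p = 0.353, with the block 0.12). Cspg4 went up (1.43, SE 2.18, adjusted p = 0.784, with the block 0.598), and neither was called. Ptprc, the pan-leukocyte marker, did not exceed 20.0, and Lyz2 was at 0 in 11 samples. Other listed leukocyte markers were higher, with Cd68 at 118 to 404 and Cd14 at 2.51 to 11991. The endothelial marker Emcn was at 0 in 18 samples, and Pecam1 and Vwf did not exceed 74.0 and 86.1. Cdh5 reached 114 and Tek 2512. The part of these cell types in the receptor values was not tested.

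Pdgfa (chr5:138976014-138997370), a ligand of Pdgfra, was higher under the drug in each line. Parental cells held 187, 421, 506, 282, 146 and 52.6 normalized counts in lines #3, #4, #6, #7, #9 and #10, and resistant cells 1721, 848, 1149, 892, 884 and 2867. The lowest resistant value, 848 in line #4, lay above the highest parental value, 506 in line #6. How many of all genes separated in this way was not counted. The log2 fold change was 2.56 (SE 0.95, limma adjusted p = 0.0742, with the block 0.047), higher in 6 of 6 lines, as were 8.99% of all genes. Pdgfa was called in the fit of parental and resistant cells alone (adjusted p = 0.00712). P12 cells held 34.5, 94.4, 333, 13.4, 1424 and 146, lower than the resistant cells in 5 of 6 lines. Line #9 was the exception, where Pdgfa was 1.61-fold higher in P12 than in resistant cells. The log2 fold change of -3.35 (SE 0.95, adjusted p = 0.04) became a call without line #9 (-4.16, adjusted p = 0.00594). The gene most like Pdgfa was 6330403L08Rik (r = 0.907), an antisense transcript that shares 2315 bases with it on the opposite strand, at 5.42 to 307 normalized counts. Here too it is not given whether the quantification used strand, so that the 2 genes may share reads.

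Pdgfb (chr15:79995874-80014977), which as a dimer binds both receptors, split the lines. Parental cells held 500 to 2210 normalized counts (median 1452). Resistant cells of lines #4, #6, #7 and #9 held 1401, 3192, 2754 and 2037, but those of lines #3 and #10 only 70.1 and 56.6. P12 cells held 130 to 2431 (median 712). The log2 fold changes were -0.92 between resistant and parental (SE 0.98, limma adjusted p = 0.585) and -0.07 between P12 and resistant cells (SE 0.98, adjusted p = 0.981). The low Pdgfb of resistant lines #3 and #10 went with the highest Pdgfa values of the state, 1721 and 2867.

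Pdgfc (chr3:81036416-81214040), whose product must be cut by a protease before it can bind Pdgfra, was the steadiest member. It lay between 757 and 1886 normalized counts in parental, 254 and 2166 in resistant, 1183 and 1615 in P5 and 1044 and 2274 in P12 cells. Resistant differed from parental cells by a log2 fold change of -0.80 (SE 0.37, limma adjusted p = 0.162) and P12 from resistant cells by 0.92 (SE 0.37, adjusted p = 0.167). P12 was higher than resistant in 6 of 6 lines, as were 7.77% of all genes, though by only 1.05-fold in line #6. P12 and parental cells differed by 0.12 (SE 0.37, adjusted p = 0.902).

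**Figure D5:**
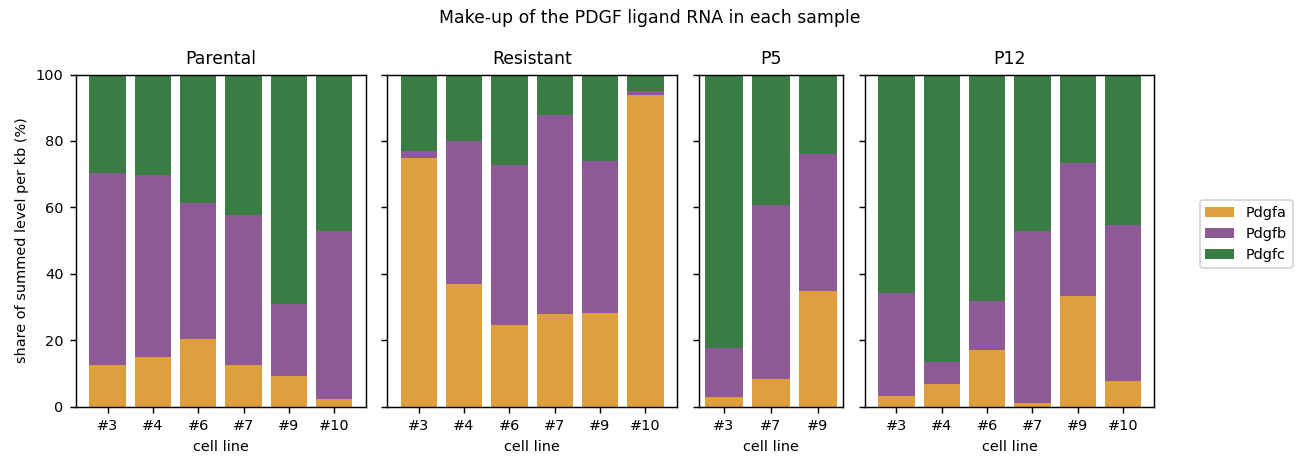
Share of Pdgfa, Pdgfb and Pdgfc, in percent of their summed normalized counts per kb, in each sample by state and cell line. Pdgfa gave at most 20.3% in parental cells and 24.7% to 93.8% in resistant cells, and Pdgfc led in P12 lines #3, #4 and #6.

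Per kb, Pdgfb led the PDGF ligands in 5 parental lines, with Pdgfc first in line #9. Pdgfa had a share of 2.36% to 20.3% in parental cells and of 24.7% to 93.8% in resistant cells, where it led in lines #3 and #10, the lines with little Pdgfb. In P12 cells Pdgfc led in lines #3, #4 and #6 and Pdgfb in lines #7, #9 and #10. In P12 lines #7 and #10, where both PDGF receptors were at 71.4 normalized counts or less, Pdgfb and Pdgfc lay at 957 to 1501.

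The other genes of these pathways were counted by list, beside 5.3% of all genes called between resistant and parental cells and 2.13% between P12 and resistant cells (10.5% and 4.52% with the block). Of 11 tested FGF ligands other than Fgf2, 1 rose and 1 fell in resistant cells, with a median log2 fold change of 0.54 over the list and -0.00 over all genes. Fgf1, which can bind all FGF receptors, fell from a median of 1707 to 56.3 normalized counts (log2 fold change -4.85, SE 1.03, limma adjusted p = 0.00397) and had a median of 1036 in P12 cells. Fgf16 was at 0 in all parental samples and had a median of 71.5, up to 98.1, in resistant cells (adjusted p = 0.00783). Fgf18, a ligand of Fgfr3, lay at 524 to 1554 in resistant cells, above all parental (17.3 to 219) and P12 values (0 to 277). How many of all genes separated in this way was not counted. Fgf18 was called lower in P12 than in resistant cells (log2 fold change -5.85, SE 1.00, limma adjusted p = 0.00173). With the block it was also called between resistant and parental cells (3.37, adjusted p = 0.00936). The block also called Fgf1 higher (4.60, adjusted p = 0.00112) and Fgf16 lower (-4.09, adjusted p = 0.00992) in P12 than in resistant cells. Fgf4, Fgf12 and Fgf20 were not analysed here.

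Of 15 other PDGF-type ligands and related receptors, Pgf, a ligand of the VEGF receptor Flt1, fell in resistant cells and rose after withdrawal. It held 75.2 to 243 normalized counts in parental, 4.24 to 20.8 in resistant, 234 to 863 in P5 and 26.4 to 1327 in P12 cells. Its log2 fold change was -3.99 between resistant and parental (SE 0.69, limma adjusted p = 0.000843), 4.78 between P12 and resistant (adjusted p = 0.000421) and 5.16 between P5 and resistant cells (adjusted p = 0.0033). With the block the list had 2 higher and 3 lower genes in resistant cells (Flt3, Flt4, Pgf, Csf1 and Kitl). Between P12 and resistant cells the block added Pdgfd (-3.24, adjusted p = 0.00534) and Flt4 (-4.13, adjusted p = 0.00522), both lower in P12.

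Of 13 FGF co-receptors and modulators, 1 was called, Klb, the co-factor that Fgfr4 needs for hormone-like FGFs. It was at 1.11 to 101 normalized counts (median 29.2) in parental, 0 to 4.78 in resistant and 2.04 to 13.9 in P12 cells, with a log2 fold change of -3.66 in resistant cells (SE 0.77, limma adjusted p = 0.00366). Of 12 heparan sulfate enzymes, the epimerase Glce was called higher in resistant cells (1.19, SE 0.23, adjusted p = 0.00222) and the chain polymerase gene Ext2 lower in P12 than in resistant cells (-1.17, SE 0.24, adjusted p = 0.0059). With the block Ext1, the partner of Ext2 in chain synthesis, was also called higher in resistant cells (1.01, adjusted p = 0.00691). The median of this list was 0.59 in resistant against parental and -0.59 in P12 against resistant cells, beside -0.00 and 0.02 over all genes.

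Of 6 proteases that can activate PDGFs, 2 fell in resistant cells. Furin, which cuts the Pdgfa and Pdgfb precursors, fell from a median of 7304 to 2317 normalized counts (log2 fold change -1.64, SE 0.39, limma adjusted p = 0.00899), and St14 from 158 to 19.7 (-2.70, SE 0.65, adjusted p = 0.00875). Of 21 adaptors and signal carriers, Gab1, which links these receptors to PI3K and Ptpn11, rose from a median of 535 to 3362 (2.76, SE 0.47, adjusted p = 0.000771). In P12 cells its median was 1042, a fall that was called with the block only. Between P12 and parental cells 0 of the 78 tested genes of these 6 lists were called in limma with or without the block, and 17 had an unadjusted p below 0.05, beside 15.3% of all genes.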

How the data were processed

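RNA of 21 samples (6 parental, 6 resistant, 3 P5 and 6 P12) was analysed by group and line number as given in the labels. A further part of the genotype that all groups share is not reported here. The authors prepared stranded poly(A) libraries, quantified transcripts with salmon 0.12 on mm10, summed them to genes and deposited 1 table of signal values, normalized counts per gene from DESeq2 1.18. Sequencing batches are not given in the sources used here. Whole reads could not be recovered, since 58.2% to 73.9% of the low values of a sample fell on multiples of 1 step (within 0.05 of a step), so that no test for read counts was run. The depth of 24.0 to 42.6 M reads (M for mega) is estimated from that step.

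Values were taken as log2(value + 1). The 19300 genes with 10 or more in 3 or more samples were tested with limma 3.58.1 (R 4.3.3, 1 fit of all 4 states, eBayes with a trend, Benjamini-Hochberg adjustment), at the study's thresholds of 0.01 and a log2 fold change of 1. The line numbers pair the samples, since the same number is the same cell line; deviations of samples of 1 line from their state means correlated with r = 0.159 to 0.352 (resistant and parental), 0.337 to 0.52 (P12 and resistant) and 0.00819 to 0.51 (P12 and parental). The fit with the line as a block is given where it changed a call of a member or named gene among parental, resistant and P12 cells. The fit was tested on simulated data without differences between lines, which cannot show how it behaves with samples paired by line. Levels of different genes were compared per kb of the longest coding GENCODE M21 transcript. Promoters are RefSeq windows of GRCm38.p6. Figures were drawn with matplotlib 3.10.9 (Python 3.11.15).

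All 10 members are named. Of the lists, called genes were named by the largest change, up to 3 per direction, and for a member the 3 genes with the highest correlation. Members, lists and markers were chosen with earlier results of these data known. Alternatives were pseudocounts of 0.5 and 8, no filter, a mean of at least 100, upper quartile scaling, the block, no trend, an adjusted p below 0.05, the compared states alone and each line left out. Leaving out each line from the fit with the block was added after seeing the data.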

Additional observations from a re-analysis of the deposited data

Results flagged for a closer look

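Of 30 groups of a member and a state with 6 samples, 3 held a sample far from the others on the log2 scale, judged by the gap to its neighbor as a share of the range of the group (Dixon's 95% critical value). Chance gives about 1 in 20 such groups. Fgfr4 of parental line #9 was the lowest of its state at 1.89 normalized counts, with a gap of 0.816 of the range. Pdgfc of parental line #3 was the lowest at 757, with a gap of 0.725. Fgfr2 of P12 line #7 was the lowest at 6.05, with a gap of 0.627.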

How the results depend on the processing

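The 6 lines differ widely, and a member without a call is not shown to be unchanged. Genes called between resistant and parental cells numbered 1023, with the line as a replicate block 2017, and at an adjusted p below 0.05 2190. For P12 against resistant cells they were 412, 872 with the block, 947 at 0.05 and 93 from the compared states alone. For P12 against parental cells they were 22, 101 with the block, 116 at 0.05, 5 with a mean of at least 100 and 12 from the compared states alone. For P5 against resistant cells they were 73, 118 with the block, 376 at 0.05 and 14 alone, and for P5 against parental cells 5, 3 with a mean of at least 100, 9 at 0.05 and 1 alone. Without 1 line, the counts ranged from 456 to 1239, 132 to 459, 4 to 68, 23 to 48 and 1 to 5 in these 5 comparisons, and with the block and without 1 line (chosen after seeing the data) from 1141 to 1992, 395 to 805 and 10 to 215 in the first 3 (1702 without line #7 in the first). Members called were 1, 0 and 0 in the first 3 comparisons, 2, 1 and 1 with the block or at 0.05, and 0 to 1 in each without 1 line. With the block and without 1 line they were 2 to 2, 1 to 2 and 0 to 1. In P12 against resistant cells the called member differed, as the block called Fgfr3 and the threshold of 0.05 called Pdgfa. The fit of resistant and parental cells alone called 1 member, Pdgfa, not Fgfr4. Upper quartile scaling turned Pdgfb in P12 against resistant cells to 0.0203. The block turned Pdgfa and Pdgfc in P5 against parental cells to 0.0354 and 0.0125, and a pseudocount of 8 turned Fgfr3 there to -0.0195. Leaving out a line turned 9 small changes: Fgfr1 in resistant against parental (-0.19 to 1.06), Pdgfb in P12 against resistant (-0.98 to 0.60), Fgfr3 in P12 against parental (-0.22 to 0.92), Pdgfb and Fgfr4 in P5 against resistant (-0.36 to 0.80 and -0.42 to 1.52), and Pdgfa, Pdgfb, Pdgfc and Fgfr3 in P5 against parental cells (-1.76 to 1.05, -1.54 to 0.44, -0.28 to 0.079 and -1.07 to 0.48). The cause was not tested. The rise of the Fgfr1 to Fgfr2 ratio from resistant to P12 cells lay between 5.80 and 6.92 without 1 line.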

Other observations

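Among the other cell type markers, Cd14, a lipopolysaccharide co-receptor, fell in resistant cells (log2 fold change -5.46, SE 1.02, limma adjusted p = 0.00155) and rose again in P12 cells (5.10, SE 1.02, adjusted p = 0.00505), while Ptprc stayed at 20.0 normalized counts or less in all samples. Tek, the angiopoietin receptor, rose in resistant cells (5.90, SE 1.14, adjusted p = 0.002) and fell in P12 cells (-5.84, SE 1.14, adjusted p = 0.00427), while Emcn was at 4.13 or less. With the block Pecam1, an endothelial adhesion molecule, was also called higher in P12 than in resistant cells (1.39, limma adjusted p = 0.00464). Of the 6 acinar markers 2 were tested, and limma called 0 of them in the comparisons of resistant, P12 and parental cells, with or without the block (1, 2 and 0 had an unadjusted p below 0.05 in resistant against parental, P12 against resistant and P12 against parental cells). Cela1 was the highest of them at up to 931 normalized counts.

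The genes most like the remaining members over the 21 samples were Tctn3 (r = 0.869), Tigd3 (0.841) and Sh3pxd2a (0.835) for Fgfr3, Cdh24 (0.759), AI464131 (0.749) and Plxnb1 (0.742) for Fgfr2, and Rapgef3 (0.905), Gm16174 (0.855) and Alcam (0.848) for Fgf2. For Pdgfa, Ostm1 (0.838) and Lamp1 (0.836) followed, both lysosomal genes. For Pdgfb they were Cd24a (0.808), AC127596.2 (0.795) and 3110053B16Rik (0.795), and for Pdgfc Tcf7 (0.787), Gm15491 (0.766) and Ndufaf6 (0.766).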
